A study of Mus musculus with 13 samples.

Results

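The inhibitory G protein-coupled receptor genes *Npy1r*, *Npy2r*, *Cnr1*, *Oprm1*, *Adora1*, *Gabbr1* and *Gabbr2*, 7 of the 50508 genes listed, were followed in single mouse proprioceptive sensory neurons (pSNs) from e14.5 to the adult. They were chosen as receptors that couple to Gi and selected on earlier values of these data, among them the levels of *Cnr1* and *Npy1r* across adult clusters, so levels by cluster are given as a description without a test. Neurons of dorsal root ganglia (DRG) of animals of either sex were dissociated, sorted for tdTomato and sequenced 1 per well by Plate-seq, on 13 plates of 96 wells. Adult (5 plates, 6 animals, older than postnatal day 56), p12 (4 plates, 4 animals) and p0 (2 plates, 6 animals) mice were PV:Cre+/-;Rx3:Flp+/-;Ai65+/-, in which the Ai65 reporter makes tdTomato in any cell that has at some time expressed both the Parvalbumin (PV) driven Cre and the Runx3 (Rx3) driven Flp. The e14.5 embryos (2 plates, 2 animals) carried TrkC:tdTomato, a reporter for cells that express the neurotrophin receptor TrkC, so for e14.5 the stage and the genotype cannot be told apart. Both reporters also mark some cutaneous afferents, those of Merkel cells among them. Plates are the replicates, and since it is not known whether plates share animals, p-values measure the spread between plates. The authors sampled adult neurons in fewer experiments than there are adult plates, so some adult plates share an experiment and are not fully independent.

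Receptors that couple to inhibitory G proteins of the Gi/o family lower cyclic AMP by inhibiting adenylyl cyclase, and their beta-gamma subunits close voltage-gated calcium channels and open inwardly rectifying potassium channels. On the central terminals of sensory afferents such receptors reduce transmitter release, which is known as presynaptic inhibition. GABA, adenosine, endocannabinoids, opioids and neuropeptide Y each act through a receptor of this kind.

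The authors' annotation kept 586 of 1248 wells as neurons, 169 at e14.5, 55 at p0, 154 at p12 and 208 adult. A kept neuron held on average 11365 UMIs (unique molecular identifiers, 1 per captured transcript) at e14.5, 41222 at p0, 41919 at p12 and 45005 in the adult, as means over plates. *Pvalb* was detected in 100% of kept adult, p12 and p0 neurons and in 89.3% of those at e14.5, and *Ntrk3*, which encodes TrkC, in 99.5% of adult neurons. CPM scales the UMIs of a gene in a neuron to a fixed total. At e14.5 the proprioceptor gene *Etv1* averaged 766 and 820 CPM in the authors' clusters 1 and 2 but 106 and 43.5 CPM in clusters 3 and 4, with 637, 771, 273 and 264 CPM of *Pvalb* in clusters 1 to 4 (n = 2 plates, and 1 for cluster 4). Clusters 3 and 4 held 40 of the 169 e14.5 neurons (23.7%), so the e14.5 values below include neurons low in these markers. The paper proposes that these 2 clusters are TrkC neurons other than proprioceptors, Merkel cell afferents among them. The nociceptor channel gene *Scn10a* had 0 UMIs in kept adult neurons. *Uchl1*, a gene that sensory neurons express widely, was also listed at 0 in all kept neurons and in the left-out wells examined, so a 0 in these counts need not mean that a transcript was absent. Markers of satellite glia and Schwann cells summed to 506 ± 221 CPM in kept adult neurons (SD, n = 5 plates). At p12, p0 and e14.5 that sum was 425 ± 190, 587 ± 84.6 and 35.6 ± 7.35 CPM. All 13 plates used the same 96 barcodes. A level is the mean of the plate means. Because a UMI stands for a molecule, levels of different genes were compared without scaling by length.

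*Npy1r* encodes the neuropeptide Y receptor Y1 and lies on chromosome 8 (66697192 to 66706792, plus strand, GRCm38). *Cnr1*, the cannabinoid receptor CB1, lies on chromosome 4 (33924593 to 33948831, plus strand), and *Adora1*, the adenosine A1 receptor, on chromosome 1 (134199223 to 134235431, minus strand). *Gabbr1* (chromosome 17, 37045966 to 37075067, plus strand) and *Gabbr2* (chromosome 4, 46662305 to 46991873, minus strand) encode the subunits of the GABA-B receptor, an obligate heterodimer in which the first binds GABA and the second couples to the G protein. *Npy2r*, the receptor Y2 (chromosome 3, 82538383 to 82548084, minus strand), and *Oprm1*, the mu opioid receptor (chromosome 10, 6758506 to 7038198, plus strand), complete the set. *Adora1* overlaps *Mybph* on the opposite strand, which had 0 UMIs in kept neurons. *Oprm1* overlaps *Gm10945* (0 UMIs) and *Ipcef1* (39 UMIs).

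Promoters of 4 genes are shown. *Npy1r* was detected in few adult neurons (43 of 208) and *Gabbr2* in most (194 of 208), and *Cnr1* and *Adora1* changed between stages. Each holds 250 bases before and 50 bases after a transcript start of RefSeq (GRCm38.p6), 5′ to 3′ on the strand of the gene. Capitals mark GGGCGG on either strand (CCGCCC on the other), the core of the GC box bound by Sp1 family factors.
Npy1r, chr8:66697172-66697471, plus strand: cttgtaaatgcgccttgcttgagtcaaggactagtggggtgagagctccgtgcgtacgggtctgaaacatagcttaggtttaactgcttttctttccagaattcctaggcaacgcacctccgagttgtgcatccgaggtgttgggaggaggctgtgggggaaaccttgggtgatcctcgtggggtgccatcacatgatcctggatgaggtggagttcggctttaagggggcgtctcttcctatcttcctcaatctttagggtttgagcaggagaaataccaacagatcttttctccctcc
Cnr1, chr4:33924014-33924313, plus strand: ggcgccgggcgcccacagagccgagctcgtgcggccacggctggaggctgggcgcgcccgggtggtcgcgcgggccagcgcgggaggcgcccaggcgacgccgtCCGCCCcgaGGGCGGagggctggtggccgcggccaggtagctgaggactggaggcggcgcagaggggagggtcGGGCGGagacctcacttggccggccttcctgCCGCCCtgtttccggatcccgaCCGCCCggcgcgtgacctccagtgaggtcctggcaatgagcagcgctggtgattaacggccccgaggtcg
Adora1, chr1:134235408-134235707, minus strand: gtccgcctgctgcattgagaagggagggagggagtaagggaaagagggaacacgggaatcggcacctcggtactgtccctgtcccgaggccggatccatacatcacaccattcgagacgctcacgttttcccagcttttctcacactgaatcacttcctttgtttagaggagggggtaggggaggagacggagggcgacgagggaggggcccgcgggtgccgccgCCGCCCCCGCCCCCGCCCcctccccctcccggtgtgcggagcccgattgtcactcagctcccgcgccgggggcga
Gabbr2, chr4:46991665-46991964, minus strand: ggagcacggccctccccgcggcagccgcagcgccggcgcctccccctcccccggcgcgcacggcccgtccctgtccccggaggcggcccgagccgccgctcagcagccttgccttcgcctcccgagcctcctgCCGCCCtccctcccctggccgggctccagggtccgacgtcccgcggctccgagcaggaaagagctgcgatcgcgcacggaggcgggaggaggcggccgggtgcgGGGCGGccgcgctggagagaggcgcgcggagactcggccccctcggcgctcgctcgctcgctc
For *Cnr1*, RefSeq lists 3 start sites and for *Adora1* 2, of which the first is shown. The window of *Npy1r* held 10 CpG dinucleotides and no GC box at 51.7% G and C. Those of *Cnr1*, *Adora1* and *Gabbr2* held 40, 26 and 46 CpG dinucleotides and 5, 3 and 2 GC boxes, at 76.3%, 66% and 80.3% G and C. These counts depend on the start shown. The windows at starts 2 and 3 of *Cnr1* and start 2 of *Adora1* held 0 GC boxes. They held 33, 5 and 24 CpG dinucleotides, at 69%, 46.3% and 66% G and C. The window shown for *Cnr1* ends before the interval given above for that gene. Of 32851 promoters of the same length, 35.7% held GGGCGG on either strand, and the median G and C content was 52.7%. The letters TATAAA, TGACGTCA (the cAMP response element) and TGTGGT (the core bound by Runx factors) were in none of the 4 windows on either strand, against 13.6%, 1.79% and 16.8% of all promoters.

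*Gabbr1* and *Gabbr2* were detected in most neurons at every stage from p0 on, and *Cnr1*, *Adora1* and *Npy1r* in fewer. In the adult, *Gabbr1* had a UMI in 199 of 208 neurons, *Gabbr2* in 194, *Cnr1* in 102, *Adora1* in 89 and *Npy1r* in 43. By level the order was *Gabbr2* (117 ± 18.4 CPM), *Gabbr1* (108 ± 9.93), *Cnr1* (48.6 ± 32.6), *Adora1* (26.7 ± 9.40) and *Npy1r* (6.36 ± 2.62; SD, n = 5 plates). The ranges over plates of the GABA-B subunits overlapped, as did those of *Cnr1* and *Adora1*. Every adult plate of *Npy1r* was below every adult plate of *Adora1*, and every plate of either was below every plate of the GABA-B subunits.

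*Npy2r* and *Oprm1* had 0 UMIs in all 586 kept neurons. A count of 0 allows a share of up to 0.512% of neurons with a UMI and a level of up to 0.165 CPM (3 counts over all kept neurons). Among the 662 wells that were not kept, *Npy2r* had 3 UMIs in 2 wells of p12 and *Oprm1* had 2, 1 in the adult and 1 at p12. These limits and the intervals below cover counting error or the spread between plates only, and at this depth transcripts of these receptors were not detectable in the kept neurons. As for *Uchl1*, the counts do not show whether a 0 came from the counting.

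Between stages, UMIs were summed over the kept neurons of each plate and all 13 plates were fitted together with edgeR's quasi-likelihood test. Of the 7 genes, 5 passed the filter on low counts. Between e14.5 and p0, *Adora1* rose and *Cnr1* fell, 2 of the 5 genes, while 27.8% of the 11939 genes tested were called, 14.7% higher and 13.1% lower at p0. Between p0 and p12 none of the 5 was called, against 18.1% of all genes, 9.1% higher and 9.01% lower at p12 (edgeR; 0 had an unadjusted p under 0.05, and DESeq2 called 0). Between p12 and the adult none was called either, against 14.1%, 7.57% higher and 6.56% lower in the adult (edgeR; 1 had an unadjusted p under 0.05, and DESeq2 called 0). Comparisons of neighbouring stages share plates, so their values are given side by side.

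**Figure D1:**
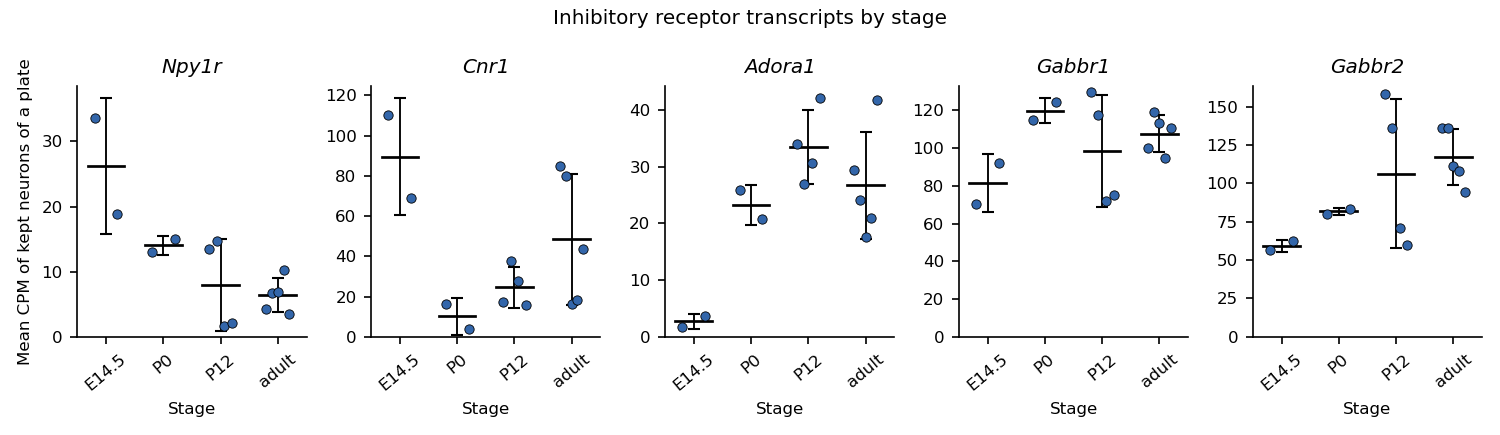
Mean CPM of the 5 receptors detected in kept neurons (vertical axis) at e14.5, p0, p12 and in the adult (horizontal axis). Points are plates, horizontal lines are means over plates and bars are SDs. The plates of *Adora1* at e14.5 (1.79 and 3.66 CPM) lie below all later plates of *Adora1*, and the p12 plates of *Npy1r*, *Gabbr1* and *Gabbr2* fall into separate pairs.

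*Adora1* was close to absent at e14.5, with 1.79 and 3.66 CPM on the 2 plates. At p0 it reached 25.8 and 20.7 CPM, at p12 33.99, 26.9, 30.6 and 42.2 CPM, and in the adult 29.4, 24.1, 17.7, 20.9 and 41.7 CPM. All plates after e14.5 were above both plates of e14.5, and the later stages overlapped. The rise from e14.5 to p0 was 2.83 ± 0.54 on the log2 scale (SE, adjusted p = 0.00188, edgeR; log2 interval 1.77 to 3.90), a 7.13-fold difference. In the same step 3 of 6 glial markers tested rose, *Apoe* by 5.81 (adjusted p = 0.000237), *Fabp7* by 5.56 (adjusted p = 0.00015) and *Mbp* by 1.70 (adjusted p = 0.0373), with a median of 1.95 over the list. The summed level of the whole list was 30.4 to 40.7 CPM at e14.5 and 527 to 647 CPM at p0. Left-out adult wells, rich in these markers, had more *Adora1* than kept neurons on 4 of 5 plates. At p0, left-out wells, with 2113 CPM of *Apoe* against 291 CPM in kept neurons, had 24.6 ± 2.49 CPM of *Adora1* against 23.3 ± 3.59 CPM (SD, n = 2 plates). At p12 *Adora1* was at 39.1 ± 8.94 against 33.4 ± 6.51 CPM (SD, n = 4 plates). The part of glial transcripts in the rise of *Adora1* was not tested. A UMI was found in 6 of 169 neurons at e14.5 and in 28 of 55 at p0. Kept neurons of p0 were deeper than those of e14.5, and after thinning each neuron to 7000 UMIs the mean of plate shares with a UMI was 5.31% at p0 and 1.95% at e14.5. On thinned counts the difference was 1.55, with an adjusted p of 0.276 (edgeR), while that from p0 to p12 was 1.82 and passed (adjusted p = 0.0483). With e14.5 clusters 1 and 2 alone, a choice added after seeing the data, the rise to p0 was 3.33 (adjusted p = 0.00176). The p0 to p12 difference was 0.41 ± 0.34 (adjusted p = 0.438), and from p12 to the adult −0.55 ± 0.26 (adjusted p = 0.161; interval −1.05 to −0.05). Without the 42 adult neurons that had no numbered cluster the last difference was −1.23 (adjusted p = 0.0104, edgeR), so this call turned on those neurons.

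*Cnr1* was highest at e14.5, with 110 and 68.9 CPM. It was lowest at p0, with 16.5 and 3.71 CPM, and stood at 17.2, 37.8, 27.5 and 15.7 CPM at p12. Both e14.5 plates were above all plates of p0 and p12, and the p0 plates overlapped those of p12. Adult plates fell far apart, at 84.7, 79.7, 16.2, 18.5 and 43.7 CPM. The fall from e14.5 to p0 was −3.09 ± 0.70 (adjusted p = 0.00542, edgeR; interval −4.46 to −1.71), to 0.118 of the earlier level. In this step *P2rx3*, an ATP-gated channel of nociceptors, fell by 2.53 (adjusted p = 0.0122), 1 of 4 nociceptor and cutaneous afferent markers tested, and *Runx3* fell by 1.69 (adjusted p = 0.005895). The summed level of the nociceptor and cutaneous list was 133 ± 45.7 CPM at e14.5 and 145 ± 55.7 CPM at p0 (SD, n = 2 plates), and the part of such neurons in the fall of *Cnr1* was not tested. Without p0 replicate 2 the fall was −2.43, and without p0 replicate 1 it was −4.70, so its size rested on the lower p0 plate. After thinning it was −2.92 (adjusted p = 0.0141), and with e14.5 clusters 1 and 2 alone −3.26 (adjusted p = 0.00446). A UMI was found in 62 of 169 neurons at e14.5 and in 17 of 55 at p0. As means of plate shares these were 37.3% and 28.8%, and 32.8% and 9.0% after thinning. The step to p12 was 1.11 ± 0.68 (adjusted p = 0.282; interval −0.22 to 2.44) and from p12 to the adult 0.88 ± 0.45 (adjusted p = 0.198; interval 0.00 to 1.75). Without the filter on low counts both passed, at 1.13 (adjusted p = 0.0427) and 0.85 (adjusted p = 0.01415, edgeR).

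*Npy1r* was lower at each later stage by its mean, from 26.3 ± 10.5 CPM at e14.5 to 14 ± 1.5 at p0, 8.0 ± 7.09 at p12 and 6.36 ± 2.62 in the adult, but no step between neighbouring stages passed the test. The plates of e14.5 had 33.7 and 18.9 CPM, and those of p0 13 and 15.1 CPM. At p12 the plates formed pairs, 13.5 and 14.8 CPM on replicates 1 and 2 and 1.60 and 2.17 CPM on replicates 3 and 4. Adult plates had 4.32, 6.80, 6.86, 10.2 and 3.58 CPM, between the p12 pairs. Both e14.5 plates were above all later plates. The differences were −0.66 ± 0.65 from e14.5 to p0 (adjusted p = 0.484; interval −1.93 to 0.62; −0.040 with e14.5 clusters 1 and 2 alone, adjusted p = 0.980), −1.08 ± 0.63 from p0 to p12 (adjusted p = 0.258; interval −2.31 to 0.15) and 0.06 ± 0.52 from p12 to the adult (adjusted p = 0.955; interval −0.95 to 1.08). A UMI was found in 37 of 169 neurons at e14.5, 20 of 55 at p0, 16 of 154 at p12 and 43 of 208 in the adult. As means of plate shares these were 22.5%, 37.0%, 22.4% and 20.3%, where p12 replicates 1 and 2, with 12 and 13 neurons, count as much as replicates 3 and 4, with 67 and 62. After thinning the means were 15.2%, 12.0%, 5.01% and 4.80%.

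The pairs of p12 plates held different neurons. In the authors' annotation replicates 1 and 2 held p12 clusters 2 and 3 and no others, and replicates 3 and 4 held clusters 1, 4 and 5. With replicates 3 and 4 alone, the *Npy1r* difference was −2.77 from p0 to p12 and 1.77 from p12 to the adult. With replicates 1 and 2 alone these differences were −0.05 and −0.95. The plates were split after their levels had been seen, so these values are a description with no test, and plate and cluster cannot be told apart there.

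*Gabbr1* had stage means from 81.4 ± 15.5 to 120 ± 6.79 CPM. Plates had 70.5 and 92.4 CPM at e14.5, 115 and 125 CPM at p0, and 130, 117, 71.8 and 74.9 CPM at p12. In the adult they had 100.2, 119, 114, 95 and 111 CPM. Both p0 plates were above those of e14.5, and the p12 plates overlapped every other stage, with replicates 1 and 2 above replicates 3 and 4. The difference from e14.5 to p0 was 0.58 ± 0.23 (adjusted p = 0.0706, edgeR; interval 0.13 to 1.03). It passed the test when all wells with at least 2000 genes were used (0.64, adjusted p = 0.0197), when p0 and e14.5 were fitted alone (0.58, adjusted p = 0.0223) and without p12 replicate 1 (0.58, adjusted p = 0.0498). The difference between p0 and p12 was −0.24 ± 0.19 (adjusted p = 0.424; interval −0.62 to 0.14) and from p12 to the adult 0.15 ± 0.15 (adjusted p = 0.537; interval −0.14 to 0.45).

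*Gabbr2* had 56.5 and 62.2 CPM at e14.5 and 80.1 and 83.6 CPM at p0. At p12 it had 158 and 136 CPM on replicates 1 and 2 and 70.9 and 59.9 CPM on replicates 3 and 4, the same split of plates as for *Npy1r* and *Gabbr1*. Adult plates had 136, 136, 111, 108 and 94.6 CPM, all above those of e14.5 and p0. The differences between neighbouring stages were 0.45 ± 0.35 (adjusted p = 0.364), 0.54 ± 0.30 (adjusted p = 0.240) and 0.13 ± 0.22 (adjusted p = 0.741, edgeR), from the earliest to the latest. Their intervals were −0.24 to 1.14, −0.05 to 1.13 and −0.31 to 0.57. As a description with no test, the *Gabbr2* difference from p0 to p12 was 0.95 with p12 replicates 1 and 2 alone, and that from p12 to the adult was 0.65 with replicates 3 and 4 alone.

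**Figure D2:**
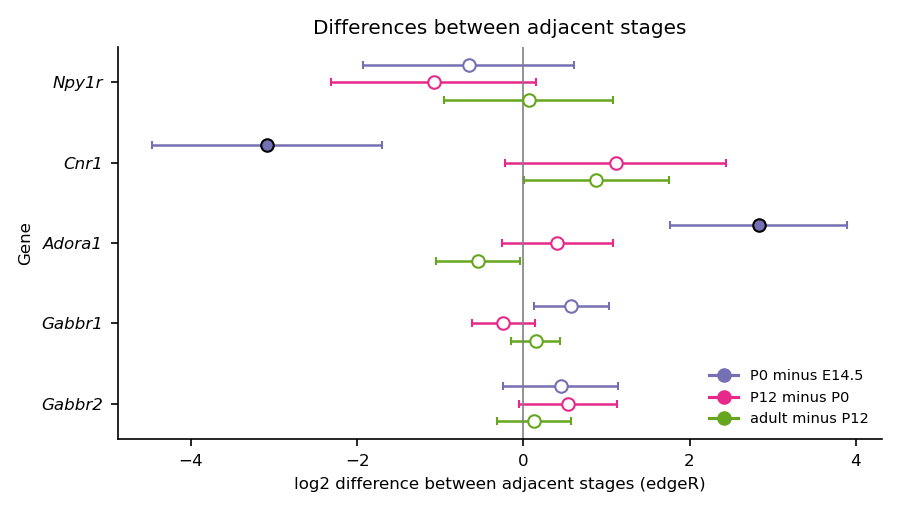
Log2 differences between neighbouring stages (horizontal axis, later minus earlier) for the 5 receptors tested (vertical axis). Bars are 95% intervals, and filled points have an adjusted p under 0.05 in edgeR. The filled points are those of *Cnr1* (−3.09) and *Adora1* (2.83) between e14.5 and p0.

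Adult neurons had been assigned by the authors to 5 clusters, of 51, 15, 41, 28 and 31 neurons, with 42 neurons set apart from them. Clusters 1 and 5 were on all plates. Clusters 2 and 4 were on plates 1 and 2 alone and cluster 3 was mostly on plates 3 to 5, so for these the cluster and the plate cannot be told apart. The clusters were found in the same neurons, and their levels are a description over plates with at least 2 neurons of a cluster. Median depth per neuron was 59922, 31306, 35599, 20138 and 57694 UMIs in clusters 1 to 5 and 30150 in the neurons set apart.

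*Npy1r* had its highest cluster mean in cluster 5, where plates had 11.4, 12.1, 48.2, 42.1 and 18.0 CPM (mean 26.3 ± 17.5). In cluster 1 they had 6.44, 7.88, 0, 1.4 and 0 CPM, and in cluster 3 they had 0, 0, 2.11 and 0 CPM. Cluster 5 was above cluster 1 on 5 of 5 plates and above cluster 3 on 4 of 4 plates, and these ranges did not overlap. The neurons set apart had 8.09, 16.1, 10.2, 7.34 and 2.53 CPM (mean 8.86 ± 4.93), a range that overlapped cluster 5 and was above it on plate 2, where 1 of 9 such neurons had a UMI. No UMI was found in the 15 neurons of cluster 2 or the 28 neurons of cluster 4, which allows up to 20.0% and 10.7% of neurons with a UMI at these depths and levels of up to 6.45 and 5.0 CPM. It sets no limit on the share of neurons that express the gene. A UMI was found in 22 of 31 neurons of cluster 5 (71.0%) and in 9 of 51 neurons of cluster 1 (17.6%). After thinning these shares were 16.1% and 3.92%. Among the neurons set apart, 11 of 42 had a UMI.

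*Cnr1* was present in clusters 4 and 5 and low in clusters 1 and 3. Cluster 4 had 158 CPM on each of its 2 plates, and cluster 5 had 70.5, 98.0, 60.2, 58.5 and 40.7 CPM. Cluster 1 had 4.41, 8.05, 0, 1.64 and 0 CPM, cluster 3 had 0, 6.86, 8.90 and 11.5 CPM, and cluster 2 lay between, at 55.3 and 26.4 CPM. The neurons set apart had 105, 159, 33.4, 20.0 and 96.0 CPM, a range that overlapped clusters 2, 4 and 5, and 28 of 42 had a UMI. On plates 1 and 2, which held both, cluster 4 was above cluster 5, and cluster 5 was above cluster 1 on 5 of 5 plates, by a ratio of means of 23.3. A UMI was found in 93.5% of neurons of cluster 5, 75% of cluster 4, 53.3% of cluster 2, 26.8% of cluster 3 and 9.80% of cluster 1. After thinning the order of clusters 4 and 5 turned, to 42.9% in cluster 4 and 35.5% in cluster 5, and cluster 1 was at 1.961%. Among neurons with a UMI the median was 146 CPM in cluster 4 and 71.4 CPM in cluster 5, and the highest neuron of cluster 4 had 611 CPM.

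*Adora1* differed from both. In clusters 1 and 5 it had 6.50, 3.83, 0, 4.65 and 6.25 CPM and 4.12, 26.5, 31.0, 13.9 and 15.0 CPM on plates 1 to 5. Cluster 5 was above cluster 1 on 4 of 5 plates, and the ranges overlapped. Cluster 4 had 36.4 and 37.5 CPM, cluster 2 had 33.0 and 10.1 CPM, and cluster 3 had 0, 7.44, 23.4 and 31.7 CPM. The highest levels were in the neurons set apart, with 96.1, 57.7, 50.1, 38.6 and 78.3 CPM. All 5 of these values were above every value of clusters 1 to 5. In these neurons markers of nociceptors and cutaneous afferents summed to 290 ± 112 CPM, against 133 ± 59.5 CPM in all kept adult neurons (SD, n = 5 plates). All kept adult neurons include those set apart. Of 10 markers 8 were detected, with *Scn10a* at 0. *Tac1* was the largest part of both sums, at 217 ± 157 against 79.4 ± 65.6 CPM. *Ret* was at 55.4 against 38.9 CPM, *Ntrk2* at 8.81 against 8.09 CPM and *Calca* at 1.63 against 3.80 CPM. Each other marker was at most 3.03 CPM in the neurons set apart. The paper also names *Tac1* as a marker of a proprioceptor cluster, so this sum does not separate other afferents from proprioceptors. Glial markers summed to 551 ± 285 CPM in the neurons set apart, against 506 ± 221 CPM. The part of other afferents in the level of *Adora1* was not tested.

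The GABA-B subunits were detected in most neurons of every cluster, *Gabbr1* in 162 and *Gabbr2* in 157 of the 166 neurons of clusters 1 to 5. Among clusters 1 to 5 their shares before thinning were lowest in cluster 4, the shallowest, with *Gabbr1* in 25 of 28 neurons (89.3%) and *Gabbr2* in 21 (75%, the share that *Cnr1* had there). In clusters 1, 2, 3 and 5 they were at least 97.6% for *Gabbr1* and 93.3% for *Gabbr2*. After thinning this order did not hold, with *Gabbr1* at 53.6% in cluster 4 and 48.4% in cluster 5 and *Gabbr2* at 42.9% in cluster 4 and 41.5% in cluster 3. *Gabbr1* ranged between cluster means of 95.2 ± 15.1 CPM in cluster 4 and 146 ± 9.61 CPM in cluster 2, and *Gabbr2* between 88.1 ± 21.5 CPM and 146 ± 27.6 CPM in the same clusters. Clusters 2 and 4 were on plates 1 and 2 alone. On those plates mean *Gabbr2* was higher in clusters 1 (173 CPM) and 5 (152 CPM) than in cluster 2. On plates 1 and 2, *Gabbr2* in cluster 4 (103 and 72.9 CPM) was below clusters 1 (180 and 167 CPM), 2 (166 and 127 CPM) and 5 (131 and 173.5 CPM). These ranges did not overlap.

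**Figure D3:**
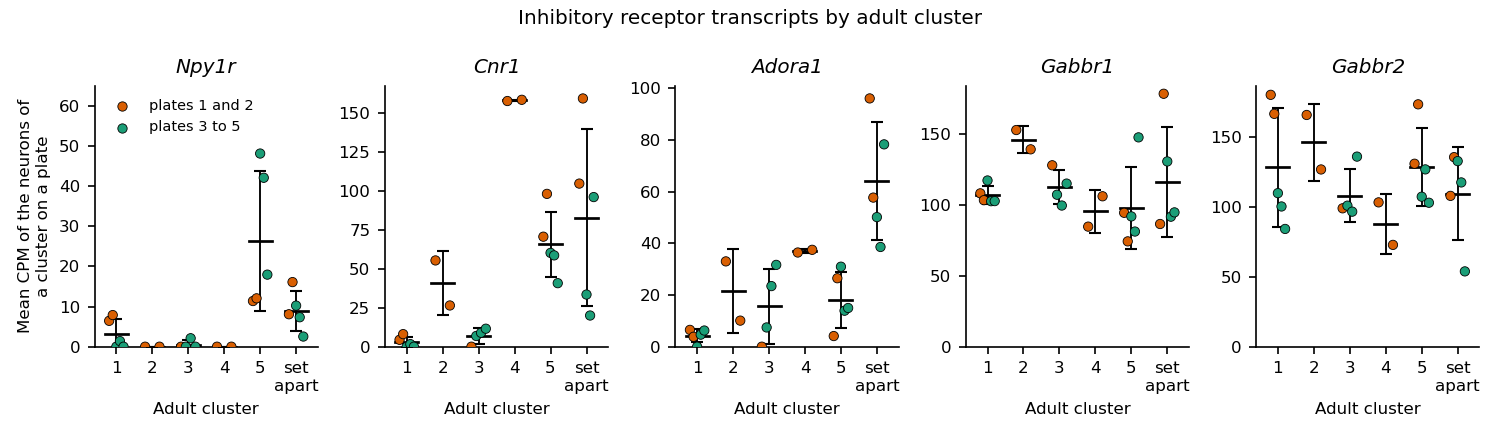
Mean CPM per cluster and plate (vertical axis) for adult clusters 1 to 5 and the neurons set apart (horizontal axis). Points are plates with at least 2 neurons of the cluster, orange for plates 1 and 2 and green for plates 3 to 5, lines are means and bars are SDs. *Npy1r* is highest in cluster 5 (26.3 CPM), *Cnr1* in cluster 4 (158 CPM) and *Adora1* in the neurons set apart (64.2 CPM), while the GABA-B subunits stay above 50 CPM throughout.

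The plates themselves also differed within clusters. Plates 1 and 2 were compared with plates 3 to 5 within clusters 1 and 5, with cluster as a covariate. *Gabbr2* was higher on plates 1 and 2 by 0.59 ± 0.13 (adjusted p = 0.00336, edgeR) and *Cnr1* by 0.84 ± 0.29 (adjusted p = 0.0431), 2 of the 3 members tested, against 22.8% of 6471 genes. *Gabbr1* differed by −0.14 ± 0.17 (adjusted p = 0.610), and *Npy1r* and *Adora1* did not pass the filter there. Each plate gave 2 sums that were fitted as independent, so these p-values are too small. With 1 sum per plate, *Gabbr2* differed by 0.71 in cluster 1 alone (adjusted p = 0.0165) and by 0.44 in cluster 5 alone (adjusted p = 0.255), and *Cnr1* by 0.72 in cluster 5 alone (adjusted p = 0.151, edgeR). *Npy1r* passed the filter in cluster 5 alone and was at −1.68 on plates 1 and 2 relative to plates 3 to 5 (adjusted p = 0.0786). These fits were added after seeing the data. The *Cnr1* call was lost without any 1 of the 5 plates (adjusted p between 0.05004 and 0.309) and in DESeq2 (adjusted p = 0.135). The *Gabbr2* call was lost after thinning (0.79, adjusted p = 0.138).

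In single adult neurons the receptors overlapped. *Cnr1* was found in 30 of the 43 neurons with *Npy1r* (69.8%), against 102 of all 208 (49.0%), and these are 29.4% of the neurons with *Cnr1*. *Gabbr2* was found in all 43, against 194 of all 208. *Adora1* and *Cnr1* shared 57 neurons, 64.0% of those with *Adora1* and 55.9% of those with *Cnr1*. In cluster 5, 20 of 31 neurons had both *Npy1r* and *Cnr1*, 9 had *Cnr1* without *Npy1r*, 2 had *Npy1r* without *Cnr1* and none had neither. All 16 neurons of cluster 5 with *Adora1* also had *Cnr1*. Since 29 of the 31 neurons had *Cnr1*, such overlaps in cluster 5 say little of an association. Cluster 5 held 20 of the 30 adult neurons with both *Npy1r* and *Cnr1*. Both genes were chosen for their levels across adult clusters, so their overlap among all adult neurons restates that choice in part. At e14.5, 15 of 37 neurons with *Npy1r* had *Cnr1* (40.5%) and none had *Adora1*. Among all kept e14.5 neurons these shares were 36.7% and 3.55%, so neither overlap was far from them. The median number of the 7 receptors detected per neuron was 2 at e14.5, 3 at p0, 2 at p12 and 3 in the adult. These counts were not thinned, and depth was lowest at e14.5. Since *Npy2r* and *Oprm1* were not detected in any kept neuron, 5 was the most that a neuron could have. Over the 208 adult neurons, which share plates and differ in depth, Pearson's r of pairs was weak, the highest 0.238 for *Cnr1* and *Adora1*.

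**Figure D4:**
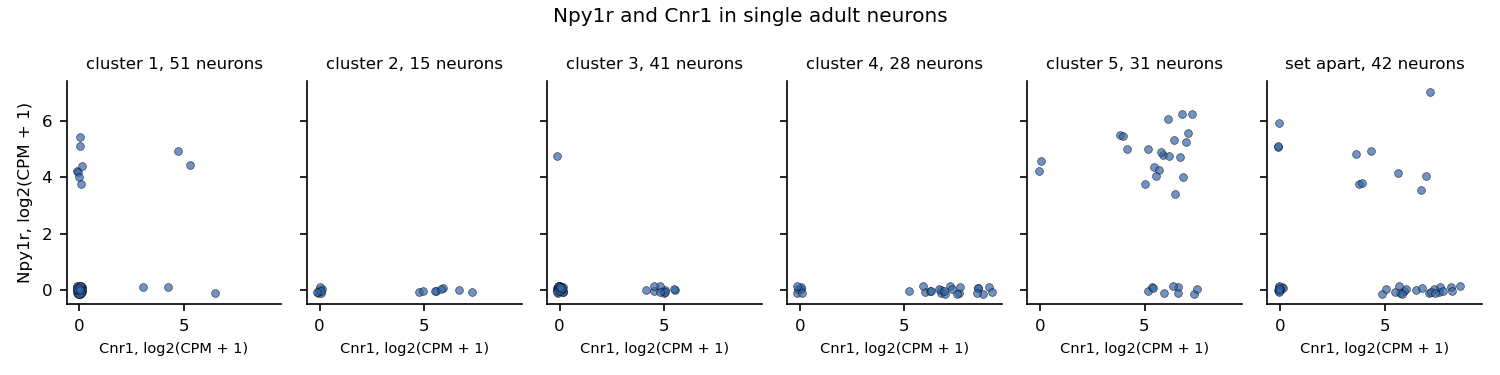
*Npy1r* (vertical axis) against *Cnr1* (horizontal axis) in single adult neurons, both as log2(CPM + 1), by cluster. Each point is a neuron, moved slightly at random so that neurons at 0 can be seen. In cluster 5, 20 of 31 neurons lie off both axes, and in clusters 2 and 4 all neurons lie at 0 of *Npy1r*.

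The authors' clusters at the earlier stages also differed in these genes, again as a description. At e14.5 *Npy1r* had 71.8 and 29.9 CPM in cluster 3, against 26.1 and 13.6 CPM in cluster 1 and 13.9 and 17.6 CPM in cluster 2. Cluster 3, low in *Etv1* and *Pvalb* and proposed by the authors to be non-proprioceptive, was above both on each plate. Cluster 4, also low in them, had 24.9 CPM on its 1 plate with at least 2 neurons, between clusters 2 and 3 there, and a UMI in 2 of 6 neurons against 13 of 34 in cluster 3. At p0 *Npy1r* was highest in cluster 2, with 23.1 and 32.5 CPM and a UMI in 9 of 12 neurons, against 12.0 and 11.5 CPM in cluster 1 and 0 and 6.57 CPM in cluster 3. At p12 it was highest in cluster 3, with 18.5 and 19.2 CPM, and no other cluster exceeded 6.35 CPM on a plate. *Cnr1* at p12 had 53.6 and 18.0 CPM in cluster 1, 25.4 and 49.1 CPM in cluster 3 and 17.1 and 12.5 CPM in cluster 4. It was at 5.59 and 0 CPM in cluster 2. *Adora1* at p12 was highest in cluster 1, with 51.6 and 52.4 CPM, and next in cluster 3, with 49.9 and 33.0 CPM. In the 8 neurons of p12 cluster 5, *Npy1r*, *Cnr1* and *Adora1* all had 0 UMIs, which allows up to 37.5% of neurons with a UMI at this depth and 7.64 CPM, while *Gabbr1* and *Gabbr2* were found in 8 of 8. *Gabbr2* at p12 ranged from 55.5 ± 7.04 CPM in cluster 1 to 201 ± 57.7 CPM in cluster 2 (SD, n = 2 plates), and *Gabbr1* at p0 reached 192.5 ± 8.12 CPM in cluster 3 against 113 ± 5.90 and 90.0 ± 2.54 CPM in clusters 1 and 2.

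Wells with at least 2000 genes that the authors left out, with transcripts of satellite cells among their filters, were compared with the kept neurons of the same plates, with plate as a block. Glial markers summed to 9623 ± 2128 CPM in left-out adult wells, and 9 of 9 glial markers tested were lower in kept neurons (median log2 difference −4.78). Of markers of other cells, 2 of 2 blood, 2 of 3 fibroblast and 2 of 4 nociceptor and cutaneous afferent genes were lower as well, among them *Hbb-bs* (−4.79), *Col1a2* (−4.21) and *Calca* (−3.51), while *Dcn* (1.26) and *Ret* (0.61) were higher. Of 6 neuronal genes listed, the 5 tested were higher in kept neurons, with *Nefm* at 0.59 and *Nefh* at 0.50, and *Uchl1* was at 0. The part of these cells in the values of the receptors was not tested. *Adora1* was lower in kept adult neurons by −0.65 ± 0.17 (adjusted p = 0.0141, edgeR), 1 of the 5 members tested, while 15.2% of 11599 genes were called, 8.79% lower in kept neurons. Kept neurons had 29.4, 24.1, 17.7, 20.9 and 41.7 CPM on plates 1 to 5, and left-out wells 41.3, 42.8, 41.1, 33.8 and 30.5 CPM. Left-out wells were higher on 4 of 5 plates and lower on plate 5. The call was lost in DESeq2 (−0.65, adjusted p = 0.285) and without plate 1, 2 or 3 (adjusted p between 0.0586 and 0.06895). *Gabbr2* was higher in kept neurons on 5 of 5 adult plates without passing the test. The members other than *Adora1* differed by 0.55 (*Npy1r*), −0.19 (*Cnr1*), −0.12 (*Gabbr1*) and 0.18 (*Gabbr2*) on the log2 scale (adjusted p = 0.397, 0.593, 0.372 and 0.169, edgeR). At p12 none of the 5 was called, against 7.86% of 9809 genes, 2.46% higher and 5.4% lower in kept neurons (edgeR; 2 had an unadjusted p under 0.05, and DESeq2 called 0). There *Gabbr2* differed by 0.36 (adjusted p = 0.0587) and *Cnr1* by −0.43 (adjusted p = 0.254), with left-out wells of *Cnr1* higher on 4 of 4 plates.

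**Figure D5:**
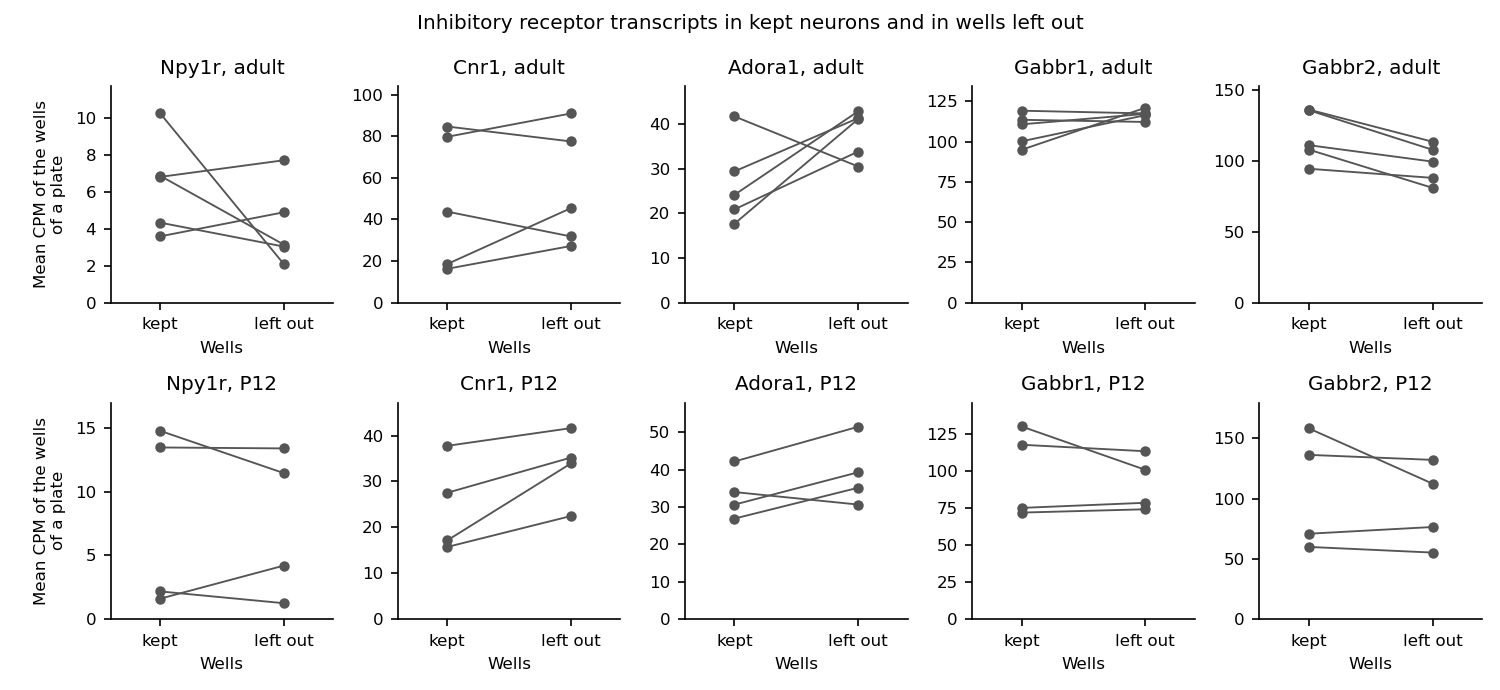
Mean CPM of the wells of a plate (vertical axis) for kept neurons and for wells left out with at least 2000 genes (horizontal axis), in the adult (top row) and at p12 (bottom row). Lines join the values of the same plate. Left-out wells of *Adora1* are higher on 4 of 5 adult plates, and those of *Gabbr2* are lower on 5 of 5.

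Other genes of the pathway were counted from lists chosen for their roles. Of 41 further Gi-coupled receptors listed, 11 passed the filter, and between e14.5 and p0 2 rose and none fell, between p0 and p12 3 rose and 2 fell, and between p12 and the adult 1 fell. Over all genes tested, 14.7% rose and 13.1% fell in the first of these steps, 9.1% and 9.01% in the next and 7.57% and 6.56% in the last. The list's median log2 differences were 0.96, 0.47 and −0.42, against 0.01, 0.02 and 0.04 over all genes tested. *Htr1d* and *Htr1f*, serotonin receptors, and *Adra2c*, an alpha-2 adrenergic receptor, were the most abundant in the adult, at 76.5, 32.7 and 28.6 CPM. *Htr1d* rose by 1.57 from e14.5 to p0 (adjusted p = 0.00625) and by 0.92 from p0 to p12 (adjusted p = 0.0383, edgeR). *Grm4*, a metabotropic glutamate receptor, rose by 1.59 from e14.5 to p0 (adjusted p = 0.0264). From p0 to p12 *Adra2c* rose by 2.38 (adjusted p = 0.000137) and *Htr1f* by 2.79 (adjusted p = 0.00202), and *Grm3*, a metabotropic glutamate receptor, fell by 4.998 (adjusted p = 2.28e-05). *Chrm2*, the muscarinic receptor M2, fell by 1.41 from p0 to p12 (adjusted p = 0.0290) and by 2.30 from p12 to the adult (adjusted p = 0.00419).

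The G proteins themselves were abundant, with 1756 ± 395 CPM of the gamma subunit *Gng3* and 154 ± 12.6 CPM of the alpha subunit *Gnai1* in the adult (SD, n = 5 plates). The beta subunit *Gnb1* averaged 1461 ± 1472 CPM, with plates between 348 and 3214 CPM. Of 16 subunits tested, 4 rose and 2 fell from e14.5 to p0 (27.8% of all genes called), 8 fell and none rose from p0 to p12 (18.1% called), and 1 rose and 6 fell from p12 to the adult (14.1% called). Their median log2 differences were 0.22, −0.74 and −0.35, against 0.01, 0.02 and 0.04 over all genes. *Gnai1*, an inhibitory alpha subunit, rose by 1.98 from e14.5 to p0 (adjusted p = 4.76e-05), as did *Gnb5* by 1.298 and *Gng13* by 2.91, while *Gng5* fell by 1.38. From p0 to p12 *Gnb4* fell by 3.92 (adjusted p = 1.51e-05), *Gng5* by 1.90, *Gng2* by 1.21 and *Gnb2* by 0.91 (edgeR). From p12 to the adult *Gng2* fell by 0.86, *Gng4* by 2.77 and *Gnb2* by 0.67, and *Gnaz*, another alpha subunit of the inhibitory family, rose by 0.71 (adjusted p = 0.00915).

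Among effectors, adenylyl cyclase 1 (*Adcy1*, 46.4 CPM), the P/Q-type calcium channel *Cacna1a* (43.2 CPM) and *Adcy9* (28.1 CPM) were the most abundant in the adult. Of 9 tested, 2 rose from e14.5 to p0, 3 rose and 1 fell from p0 to p12, and 1 fell from p12 to the adult, against 27.8%, 18.1% and 14.1% of all genes called, with medians of 0.65, 0.38 and −0.07. *Adcy9* rose at both earlier steps, by 2.09 and 1.02 (adjusted p = 0.00802 and 0.0409, edgeR). *Adcy2* rose by 1.70 and then fell by 1.86. From p0 to p12 *Adcy8* rose by 1.89, and *Kcnj9*, a subunit of the potassium channels that G proteins open, rose by 3.30 (adjusted p = 0.0170). *Cacna1b*, the N-type calcium channel that presynaptic Gi signalling inhibits, fell by 0.84 from p12 to the adult (adjusted p = 0.0458).

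Among receptor partners and regulators of desensitisation, 7 of 20 tested rose and none fell from e14.5 to p0, 3 rose and 5 fell from p0 to p12, and 2 rose and 3 fell from p12 to the adult (medians 0.48, −0.18 and −0.23; 27.8%, 18.1% and 14.1% of all genes called). *Rgs7bp*, which anchors RGS7 at the membrane, was the most abundant at 490.5 CPM in the adult, followed by *Rgs2* (69.3 CPM) and *Cnrip1*, which encodes a protein that binds CB1 (57.3 CPM). From e14.5 to p0, *Rgs7bp* rose by 2.02 (adjusted p = 0.000136), *Rgs7* by 2.65 (adjusted p = 0.00101), *Rgs2* by 1.57 and *Rgs17* by 1.62. In the following step *Rgs7bp* rose by 1.37 and *Rgs6* by 4.48, and *Rgs20* and *Rgs19* fell by 2.52 and 1.71. From p12 to the adult *Rgs10*, *Rgs19* and *Gpsm3* fell by 1.52, 1.35 and 1.64, and *Rgs6* rose by 1.57 (edgeR). The RGS proteins speed the return of G proteins to their inactive state.

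Of genes for ligand synthesis and breakdown, 6 of 9 tested rose and none fell from e14.5 to p0, 4 rose and none fell from p0 to p12, and 1 rose and 3 fell from p12 to the adult (medians 1.44, 0.30 and 0.04). Over all genes 27.8%, 18.1% and 14.1% were called in these steps, 14.7%, 9.1% and 7.57% higher. *Abhd12* and *Abhd6*, hydrolases that break down the endocannabinoid 2-arachidonoylglycerol, and *Adk*, adenosine kinase, were the most abundant in the adult, at 265, 78.0 and 128 CPM. From e14.5 to p0 the adenosine transporter *Slc29a1* rose by 4.34 (adjusted p = 0.000379), *Mgll*, the main hydrolase of 2-arachidonoylglycerol, by 4.47, *Abhd12* by 1.55 and *Abhd6* by 1.44. From p0 to p12 *Adk* rose by 1.4, *Slc29a2* by 1.17, *Abhd12* by 0.75 and *Abhd6* by 0.69. From p12 to the adult *Abhd12* rose by 0.90, and *Abat*, which degrades GABA, *Mgll* and *Slc29a2* fell by 1.32, 1.73 and 0.89 (edgeR).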

How the data were processed

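Single cells were measured as UMI counts per gene and well on 13 plates. The counts deposited by the authors are whole numbers without normalization. The authors aligned reads to mm10 (GRCm38) with STAR and the NCBI annotation, assigned them to wells by barcode and counted each UMI once, with versions not given in the sources used here. Whether counting used strand is not stated. Their annotation gave the kept neurons (586, whose totals equal the sums in the plate files), stages and clusters. The authors filtered on satellite and Schwann cell transcripts, *Apoe* among them, and no doublet caller was run here. Of the genes listed, 19850 had no UMI in any well. Kept neurons summed to between 680212 and 2387288 UMIs per plate.

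Plates were grouped by their labels. CPM used the UMI total of a well. Summed counts were fitted with edgeR 4.0.16 (R 4.3.3, limma 3.58.1; quasi-likelihood F-test after TMM and filterByExpr, with Benjamini-Hochberg adjustment over all genes tested and calls at an adjusted p under 0.05), after the fits had been tested on simulated data. Intervals are 1.96 SE on each side, which is 95% for a normal distribution and too narrow with few plates. For *Cnr1* from p12 to the adult the interval was 0.0022 to 1.75 while the unadjusted p was 0.0683 (edgeR). Shares were recomputed after thinning to 7000 UMIs, which left out 18 neurons at e14.5 and 2 at p12. The members, lists and tests were chosen with earlier results of these data known. Named are the members, the up to 4 genes of each pathway list with the smallest adjusted p among those called per stage step, the 3 most abundant in the adult, and, for members in at least 20% of the neurons of adult clusters 1 to 5, the 3 genes of highest Pearson's r over sums per adult cluster and plate, predicted genes skipped. *Htr1d* from p0 to p12 was named beside these after its value was seen. Alternatives were DESeq2 1.42.0, no filter on low counts, size factors of DESeq2 used within edgeR, thinning, all wells with at least 2000 genes, fewer plates or clusters, at least 1 or 4 neurons per sum, 1 sum per plate, no block and each plate left out. The fits with fewer p12 plates, e14.5 clusters 1 and 2 alone or 1 sum per plate were added after seeing the data. Tables and figures used matplotlib 3.10.9, pandas 2.3.3, scipy 1.17.1 and numpy 2.4.6 in Python 3.11.15. Clustering was not repeated here, and protein sequences were not used here.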

Additional observations from a re-analysis of the deposited data

Results flagged for a closer look

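Among 50 sets of values over 4 or 5 plates, 6 had a plate far from the others by Dixon's test. In 4 of them the other plates were tied at 0 or 100%, where any plate that differs is picked out, and 2 of these are the level and the share from a single neuron, so the number cannot be set against the 1 in 20 that chance gives. *Npy1r* in adult cluster 3 had 2.11 CPM and a share of 7.69% of neurons on plate 4, from 1 neuron with a UMI, and 0 on the other 3 plates. *Gabbr1* in cluster 5 had 147 CPM on plate 5, which held 3 of its neurons, against 74.2 to 94.3 CPM on the other 4. *Gabbr2* in cluster 3 had 136 CPM on plate 5, against 96.7 to 101 CPM. In cluster 3, *Gabbr1* was found in 94.4% of neurons on plate 3 and *Gabbr2* in 92.3% on plate 4, against 100% on the other 3 plates for each gene.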

How the results depend on the processing

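The counts of genes called moved by over 1.5 times in these alternatives. From p12 to the adult (1687 called) they were 686 after thinning, 529 with p12 replicates 1 and 2 alone and 3070 with replicates 3 and 4 alone. After thinning they were 646 from p0 to p12 (2162), 1500 from e14.5 to p0 (3314) and 294 between adult plate sets (1473). The plate sets also gave 820 with cluster 1 alone and 485 with cluster 5 alone. With plate as a block, kept neurons and left-out wells differed in 1758 adult and 771 p12 genes. Without the block these were 491 and 187, and with DESeq2 793 and 348. Both sums come from the same plate, so the block pairs them, and without it the adult *Adora1* call was lost (−0.66, adjusted p = 0.0833, edgeR) and p12 *Npy1r* turned to −0.29. No paired analysis was possible between stages because each stage came from different animals. Leaving out 1 plate gave between 787 and 1960, 884 and 2291, and 1455 and 3571 calls from the latest stage step to the earliest, 1182 to 1748 and 402 to 676 for left-out wells of the adult and p12, and 743 to 1451 for plate sets. The plates whose absence moved a count by over 1.5 times were p12 replicates 3 and 4 in the latest step, both p0 plates in the middle step, all p0 and e14.5 plates in the earliest, p12 replicates 1 and 2 for left-out wells and adult replicates 1 and 2 for plate sets.

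Signs turned for small differences. From p12 to the adult *Npy1r* was −0.14 in DESeq2, −0.35 with all wells, −0.058 with adult clusters 1 to 5, −0.035 when these stages were fitted alone and −0.95 with p12 replicates 1 and 2, with which *Gabbr1* was −0.065 and *Gabbr2* −0.28. From e14.5 to p0 thinned *Gabbr2* was −0.27. With 1 plate left out, *Npy1r* ranged from −0.42 to 0.54 and *Gabbr2* from −0.038 to 0.35 from p12 to the adult, adult kept *Cnr1* from −0.38 to 0.032, p12 kept *Gabbr1* from −0.10 to 0.15 and *Npy1r* from −0.093 to 0.30, and *Gabbr1* between plate sets from −0.26 to 0.023. Thinned *Adora1* from p0 to p12 was 1.82 (adjusted p = 0.0483), and p12 kept *Gabbr2* passed with DESeq2's size factors in edgeR (0.39, adjusted p = 0.0356). The causes were not tested. Kept neurons held 201 UMIs of *Npy1r*, which did not pass the filter after thinning, and 378 of *Adora1*, and p0 and e14.5 have 2 plates each.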

Other observations

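The genes with the highest Pearson's r to each receptor were taken from 6778 genes over the 18 sums of adult clusters on plates, on log2(CPM + 1). The sums share plates and clusters, the highest of so many values were picked, and *Cnr1* itself had been chosen for its cluster levels, so the values are a description with no test. For *Cnr1* the highest Pearson's r were 0.936 for *Rtn4rl1*, a Nogo receptor relative, 0.924 for *Alcam*, a cell adhesion molecule, and 0.913 for *Nrep*. For *Adora1* they were *Dicer1* (0.846), *Rgs10* (0.843) and *Rasgrp2* (0.831), for *Gabbr1* *Gdap1l1* (0.769), *Pygl* (0.754) and *Zfp365* (0.708), and for *Gabbr2* the AMPA receptor subunit *Gria4* (0.790), *Nmnat2* (0.772) and *Atad2* (0.756). *Npy1r*, detected in 19.3% of the neurons of clusters 1 to 5, was below the 20% needed to be included.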
